A study of Mus musculus with 10 samples.

Results

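A set of 37 mouse genes was close to silent in fibroblasts and in embryonic stem cells and was expressed in cells passing from the first state toward the second. The members were chosen on their measured level in TPM, a measure of transcript abundance that is scaled by transcript length and by the total of the library. A member had a protein-coding transcript, a group mean under 0.5 TPM in fibroblasts and in stem cells, a mean of at least 5 TPM on day 6 or day 9 of reprogramming, and a day 9 mean at or above its day 3 mean. Genes with symbols starting in Krt, Cldn or Gj were set aside. Of 45706 genes, 21923 were protein-coding and 7784 of these reached 5 TPM on day 6 or day 9. Of those, 211 were under the fibroblast limit, 85 under the stem cell limit and 50 under both. The condition on day 3 left 38, and removal of Krt6a left 37.

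The study sequenced poly(A) RNA at 5 stages with 2 libraries each. The fibroblasts (MEF) were mouse embryonic fibroblasts of a C57BL/6 x 129 background that carried a doxycycline-inducible cassette for Oct4, Klf4, Sox2 and Myc in Col1a1 and the transactivator M2rtTA in ROSA26, kept without doxycycline. Cells of the same genotype at day 3 (D3), day 6 (D6) and day 9 (D9) were induced in stem cell medium with 1 µg/ml doxycycline and 50 µg/ml ascorbic acid. The embryonic stem cells (ESC) were the V6.5 line, of the same background without the cassette in its labels, in stem cell medium on irradiated feeder cells. D3, MEF and ESC cells were taken unsorted, and D6 and D9 cells were sorted as SSEA+, so time and sorting cannot be told apart between D3 and D6. Stage and sorting likewise cannot be told apart where D6 or D9 is set beside MEF or ESC. The labels do not say that replicate libraries came from separate animals or cultures, so the tests measure the spread between libraries.

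Reprogramming by these factors erases the fibroblast state first, after which the cells take on epithelial features and only later the stem cell programme. Genes expressed on the way and at neither end are known from this process, and they include genes of tissues that neither fibroblasts nor stem cells belong to, such as skin. The genes described below code for such varied proteins as cornified envelope precursors, surface proteins of the Ly6 family, transcription factors, ion transporters and synaptic proteins.

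The stretch of DNA before a gene's start holds the sites that transcription factors read, and RefSeq promoter windows (GRCm38.p6) were found for 25 of the 37 members. Among the members with an entry were Ly6g6c, Sprr2b, Lad1 and Dmkn, which rose between D6 and D9, and Nxpe2, which fell, as described below. The 250 bases before their starts are printed 5′ to 3′ to set the risers beside each other and beside the member that fell. They precede the start that RefSeq lists, which for Ly6g6c lies 1937 bases and for Nxpe2 12556 bases inside the gene as GENCODE M21 bounds it, so for these genes the window is not the region before the outermost start. The windows lie at chr17:35067075-35067324 on the plus strand for Ly6g6c, at chr3:92316455-92316704 on the plus strand for Sprr2b, at chr1:135818348-135818597 on the plus strand for Lad1, at chr7:30763506-30763755 on the plus strand for Dmkn and at chr9:48340899-48341148 on the minus strand for Nxpe2. Capitals mark any match, on either strand, to a TATA box (TATAAA), a KLF or CACCC box (CCNCNCCC), an AP-1 site (TGANTCA), an octamer (ATGCAAAT) or a GRHL site (AACNGGTT).
Ly6g6c: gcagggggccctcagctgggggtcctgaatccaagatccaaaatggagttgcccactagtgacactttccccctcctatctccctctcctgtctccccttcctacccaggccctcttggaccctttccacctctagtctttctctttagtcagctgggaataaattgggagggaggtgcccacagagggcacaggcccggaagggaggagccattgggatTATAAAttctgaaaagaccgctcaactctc
Sprr2b: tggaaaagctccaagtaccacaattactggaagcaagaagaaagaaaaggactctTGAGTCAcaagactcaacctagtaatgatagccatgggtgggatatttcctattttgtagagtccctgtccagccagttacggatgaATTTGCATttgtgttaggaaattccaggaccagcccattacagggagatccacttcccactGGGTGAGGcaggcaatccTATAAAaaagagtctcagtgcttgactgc
Lad1: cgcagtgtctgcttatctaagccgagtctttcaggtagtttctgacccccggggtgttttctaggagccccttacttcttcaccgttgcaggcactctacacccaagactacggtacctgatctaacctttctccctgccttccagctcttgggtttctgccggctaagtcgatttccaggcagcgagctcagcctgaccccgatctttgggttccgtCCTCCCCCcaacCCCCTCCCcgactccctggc
Dmkn: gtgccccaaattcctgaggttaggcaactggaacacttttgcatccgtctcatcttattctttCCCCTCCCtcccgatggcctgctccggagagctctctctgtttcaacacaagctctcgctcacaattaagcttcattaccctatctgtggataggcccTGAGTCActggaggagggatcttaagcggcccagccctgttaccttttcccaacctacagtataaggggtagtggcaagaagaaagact
Nxpe2: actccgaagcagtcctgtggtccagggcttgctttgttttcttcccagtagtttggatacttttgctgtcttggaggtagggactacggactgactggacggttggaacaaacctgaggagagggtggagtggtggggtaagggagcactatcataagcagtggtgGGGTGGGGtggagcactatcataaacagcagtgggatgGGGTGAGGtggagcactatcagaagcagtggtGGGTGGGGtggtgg

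In these windows Ly6g6c holds only a TATA box, which begins at position -30 from the start. Sprr2b holds a TATA box at -29 together with a KLF or CACCC box at -47, an octamer at -108 and an AP-1 site at -195. Lad1 and Dmkn have no TATA box, and Dmkn has an AP-1 site at -89. KLF or CACCC boxes begin at -32 and -20 in Lad1, at -187 in Dmkn, and at -84, -46 and -14 in Nxpe2, which holds no other marked site. Over the 25 members with a window, the KLF or CACCC box was present in 18 (72%), against 45.6% of 27025 promoters of the same length, the TATA box in 5 (20%, against 13%), the AP-1 site in 4 (16%, against 6.87%) and the octamer in 3 (12%, against 1.61%). A GRHL site was in 1 (4%, against 1.71%). The TEAD site GGAATG (2 members, 8%, against 12.6%), the SOX site ACAATG (2, 8%, against 11%) and the E-box CACCTG (4, 16%, against 17.1%) were no more frequent than over all promoters. The octamer promoters were those of Sprr2b, Prkcb and Hs3st3b1. The median GC content of the members' windows was 57.6%, against 52% over all promoters, and its part in these shares was not tested. A match is a run of letters only, and binding was not measured here.

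Libraries held 29585876 to 38275024 estimated reads. The markers fit the labels of the end points: the summed level of 8 fibroblast markers was 7370 and 6890 TPM in the MEF libraries and 9.43 and 9.89 TPM at D9, and that of 8 pluripotency markers was 3440 and 3470 TPM in ESC against 296 and 303 TPM at D9. Most of the pluripotency sum at D9 was Pou5f1, the gene for Oct4, with a mean of 195 TPM, and it was already at 176 TPM at D3. The part of the induced Oct4 cassette in these values was not tested. The ESC libraries also held fibroblast markers, at 710 and 745 TPM. Markers of simple epithelium (Krt8, Epcam, Cdh1 and others) summed to 64.4 and 63.3 TPM at D6 and to 336 and 354 TPM at D9.

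Added over the 37 members, the level was 4.04 and 4.65 TPM in the MEF libraries, 103 and 107 TPM at D3, 372 and 394 TPM at D6, 389 and 386 TPM at D9, and 6.89 and 7.52 TPM in ESC. These values follow from the rule at both ends. Between D6 and D9 the sums overlapped only through Gm10337 and Gm17631, which rest on few reads. Over the other 35 members they were 372 and 364 TPM at D6 and 375 and 378 TPM at D9, a small difference that was not tested. The members were modest genes: 17 reached a group mean of 10 TPM and 5 reached 20 TPM. At 5 TPM or more, 21 were expressed at both D6 and D9, 6 at D6 alone and 10 at D9 alone. Gm10337 is counted among the 17 and the 6, and Gm17631 among the 10, each through 1 library with few reads. In bulk RNA, fewer expressing cells and less RNA per cell cannot be told apart.

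**Figure D1:**
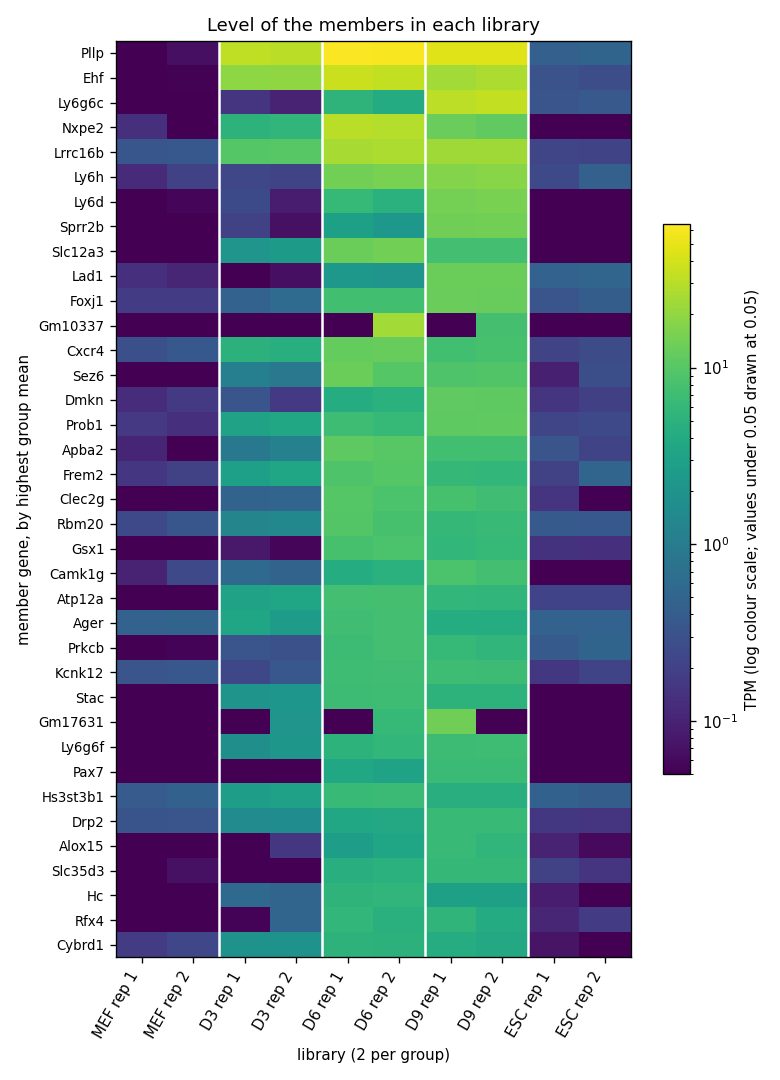
Level of the 37 members (rows, ordered by their highest group mean) in the 10 libraries (columns), in TPM on a log colour scale. MEF and ESC columns are dark for every member, D3 is bright for some members only, and Gm10337 and Gm17631 are dark in 1 of the 2 libraries at both D6 and D9.

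The members were not silent until D6. At D3, 18 of the 37 had a mean of 1 TPM or more and 13 had 2 TPM or more, and in 24 both D3 libraries were above all 4 MEF and ESC libraries. Only 14 members were under 0.5 TPM at D3. The name of late genes thus covers members that differ in their first appearance, and they are described here by the rule. In 35 members both D6 libraries were above both D3 libraries. The other 2, Gm10337 and Gm17631, overlapped; they rest on few reads, as given below, and without them 17 of 35 members were at 1 TPM or more at D3.

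Pllp, which encodes plasmolipin, a membrane protein of myelin and of epithelial cells, had the highest level of all. It measured 0.0313 and 0.0674 TPM in MEF, 32.3 and 31 TPM at D3, 62.6 and 60.6 TPM at D6, 46.4 and 46.2 TPM at D9, and 0.448 and 0.507 TPM in ESC. It was thus already high at D3, and its D6 libraries were above its D9 libraries. Ehf, an ETS-family transcription factor of epithelial cells, had the same order, with 0.0149 and 0.0523 TPM in MEF, 19.1 and 19.6 TPM at D3, 36.8 and 33.9 TPM at D6, 24.3 and 27.2 TPM at D9, and 0.314 and 0.274 TPM in ESC. Lrrc16b, named Carmil3 in newer annotation and a regulator of actin capping, stood at 0.339 and 0.357 TPM in MEF, 9.70 and 10 TPM at D3, 25.2 and 27 TPM at D6, 23.7 TPM in both D9 libraries, and 0.223 and 0.219 TPM in ESC. Its D9 libraries were slightly below those of D6 (log2 fold change -0.05 ± 0.04, SE; edgeR adjusted p = 0.33, not called). Cxcr4, the receptor for the chemokine Cxcl12, was also present early, with 0.288 and 0.360 TPM in MEF, 5.05 and 4.44 TPM at D3, 11.8 and 12.3 TPM at D6, 7.52 and 8.05 TPM at D9, and 0.220 and 0.255 TPM in ESC.

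D9 was compared with D6 by the quasi-likelihood test of edgeR over all genes, and a call needed a p-value under 0.05 after Benjamini-Hochberg adjustment and at least a 2-fold change (1 on the log2 scale). Of the 35 members that passed the filter on low counts, 7 were higher at D9, 1 was lower and 27 were not called. Over all 20165 genes tested, 5.18% were called higher and 2.68% lower. Among the 7771 tested protein-coding genes at 5 TPM or more on day 6 or day 9, the level at which members were picked, the shares were 1.7% and 1.48%. The members' 20% higher is above both, but it is not above the share among expressed genes that are low at D3, given further on. Their 2.86% lower is a single gene. No test of the list was made. The median log2 fold change of the members was -0.05, beside 0.0 for all genes tested and -0.02 for the expressed protein-coding genes.

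The members that rose were Ly6g6c, Lad1, Sprr2b, Ly6d, Dmkn, Alox15 and Pax7, and several are genes of stratified epithelia. Among them only Ly6d (5.47 TPM) had a D6 mean at or above the 5 TPM minimum. The others met the minimum through D9 alone, so the rule already set their D9 mean above their D6 mean. Their adjusted p-values are thus not independent of the choice of members. Ly6g6c, a small surface protein of the Ly6 family, measured 0 and 0.0245 TPM in MEF, 0.149 and 0.0988 TPM at D3, 5.23 and 4.10 TPM at D6, 31.8 and 33.4 TPM at D9, and 0.332 and 0.367 TPM in ESC. Both D9 libraries were far above both D6 libraries, and the log2 fold change was 2.97 ± 0.08 (SE; edgeR adjusted p = 7.1e-12). Lad1, ladinin, a protein of the anchoring filaments beneath basal epithelial cells, stood at 0.134 and 0.109 TPM in MEF, 0.0449 and 0.0667 TPM at D3, 2.29 and 2.11 TPM at D6, 12.9 and 13.1 TPM at D9, and 0.478 and 0.517 TPM in ESC. Its 4 MEF and D3 libraries were its lowest, and between D6 and D9 it rose by 2.57 ± 0.08 on the log2 scale (SE; edgeR adjusted p = 2.5e-11).

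Sprr2b, a small proline-rich precursor of the cornified envelope, had no read in the MEF and ESC libraries, which allows up to 0.095 CPM of the total reads in the first MEF library and 0.0961 CPM in the first ESC library, a limit that covers counting error only. It measured 0.207 and 0.0685 TPM at D3, 2.93 and 2.30 TPM at D6, and 13.6 and 14.3 TPM at D9, and rose by 2.50 ± 0.19 on the log2 scale (SE; edgeR adjusted p = 7.6e-07). Sprr2b met the TPM minimum through D9 alone, so this p-value is not independent of the rule. Of its 31-base windows, 32.2% also occur in transcripts of other genes, mostly Sprr2a1, so reads could be split between these relatives and the value is uncertain. Sprr2a1 itself is listed at 0 in every group, and of the other Sprr2 genes Sprr2a2 and Sprr2k had enough reads to be tested. Sprr2a2 was called higher at D9, from a mean of 0.0525 to 1.89 TPM (edgeR adjusted p = 0.00038), and Sprr2k was not called.

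Ly6d, a surface protein of the Ly6 family found on keratinocytes and early lymphoid cells, stood at 0 and 0.0558 TPM in MEF, 0.249 and 0.0854 TPM at D3, 6.08 and 4.87 TPM at D6, 14.4 and 15.5 TPM at D9, and 0.0291 and 0.0259 TPM in ESC. The D9 libraries did not overlap those of D6, and the log2 fold change was 1.54 ± 0.18 (SE; edgeR adjusted p = 1e-05). Dmkn, dermokine, a secreted protein of the upper epidermis, measured 0.124 and 0.167 TPM in MEF, 0.329 and 0.171 TPM at D3, 4.19 and 4.89 TPM at D6, 11.2 and 11.1 TPM at D9, and 0.147 and 0.193 TPM in ESC. Its D9 libraries were above both D6 libraries, by 1.14 ± 0.10 on the log2 scale (SE; edgeR adjusted p = 6e-07). Alox15, a lipoxygenase that oxidises unsaturated fatty acids, stood at 0.00792 and 0.0320 TPM in MEF, 0.0513 and 0.154 TPM at D3, 2.69 and 3.42 TPM at D6, 6.30 and 5.64 TPM at D9, and 0.0999 and 0.0593 TPM in ESC. It rose by 1.14 ± 0.14 on the log2 scale (SE; edgeR adjusted p = 2.1e-05), and the call was lost on TPM values, where the change was 0.79 to 0.95. Dmkn and Alox15 met the TPM minimum through D9 alone, so their p-values are not independent of the rule.

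Among these genes Ly6d, Sprr2b and Dmkn are on a list of 86 cornified envelope and skin barrier genes. Of the 41 genes of that list that were tested, 14 were higher at D9 and 1 was lower, with a median log2 fold change of 0.71. Over all genes tested, 5.18% were higher and 2.68% lower. The 14 include Ly6d, Sprr2b and Dmkn themselves, so the count is not separate from these members. Beside this, the 9 markers of stratified epithelium summed to 2.49 and 3.33 TPM at D6 and to 16.8 and 17.4 TPM at D9. Only Krt6a (a mean of 5.72 TPM) and Col17a1 (9.55 TPM) reached 1 TPM at D9, while the defining basal genes Krt5 (0.116 TPM), Krt14 (0.851 TPM) and Trp63 (0.0385 TPM) did not. The part of these markers in the rise of the members was not tested. Krtdap, the gene next to Dmkn on chromosome 7 at a distance of 6832 bases and also a keratinocyte gene, had mean levels of 2.80 TPM at D3, 45 TPM at D6, 227 TPM at D9 and 6.93 TPM in ESC, whereas Sbsn on the other side measured 3.14 TPM at D6 and 2.12 TPM at D9.

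**Figure D2:**
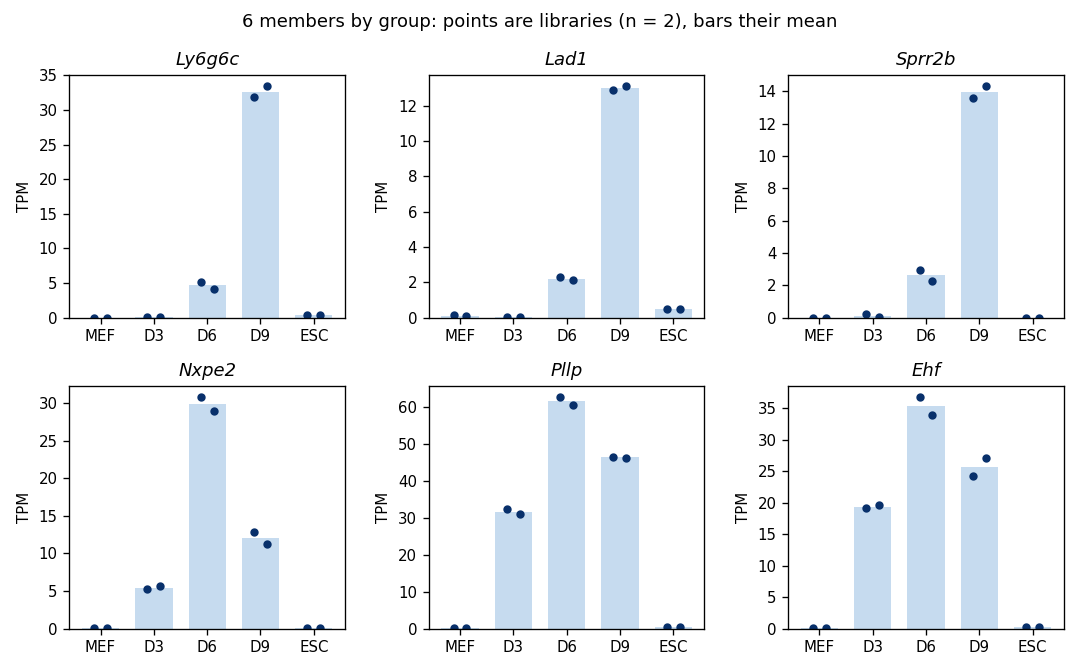
TPM of 6 members in the 5 groups, with points for the 2 libraries of a group and bars for their mean. Ly6g6c, Lad1 and Sprr2b are low until D6 and highest at D9, while Nxpe2, Pllp and Ehf are present at D3 and highest at D6.

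Nxpe2, of the neurexophilin-like family, was the member that fell. It measured 0.135 and 0.0177 TPM in MEF, 5.21 and 5.67 TPM at D3, 30.8 and 28.9 TPM at D6, 12.8 and 11.2 TPM at D9, and 0.0229 and 0.0108 TPM in ESC. The D9 libraries were well below those of D6 but still above those of D3, and the log2 fold change was -1.26 ± 0.06 (SE; edgeR adjusted p = 9.9e-10).

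Of the 27 members without a call, 22 had an edgeR adjusted p under the 0.05 threshold and missed only the 2-fold minimum, 17 of the 27 having a change below 0 and 10 above. With no fold minimum, 14 of the 35 members would be higher and 16 lower, where 15.7% and 18.9% of all genes tested, and 20.1% and 30.1% of the expressed protein-coding genes, were called. Slc12a3, the thiazide-sensitive sodium chloride cotransporter of the distal kidney tubule, was one of these. It measured 0.00559 and 0.0136 TPM in MEF, 2.13 and 2.51 TPM at D3, 13 and 14 TPM at D6, 7.62 and 7.69 TPM at D9, and 0.0471 and 0.0251 TPM in ESC. Its libraries of D6 and D9 did not overlap, with a difference of -0.73 ± 0.06 on the log2 scale (SE; edgeR adjusted p = 2.6e-07). The changes of the uncalled members ran from -0.81 for Hc, complement component C5, to 0.91 for Camk1g, a calmodulin-dependent kinase of neurons.

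**Figure D3:**
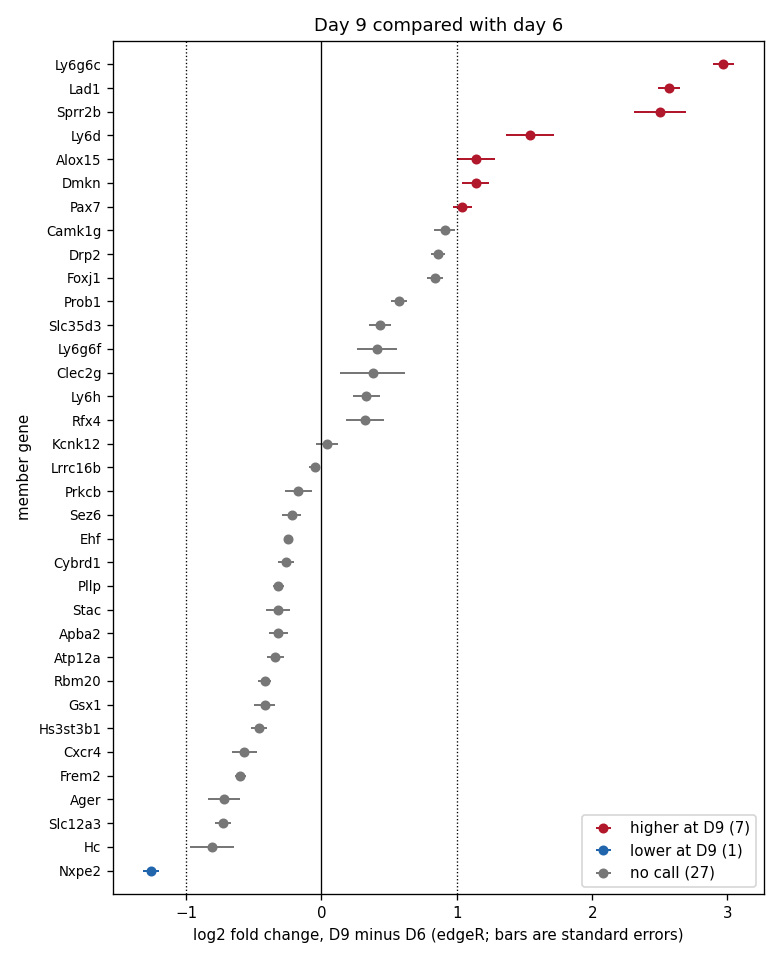
Log2 fold change of D9 over D6 for the 35 tested members (rows), with standard errors as bars, coloured by call, and dotted lines at the 2-fold minimum. Ly6g6c, Lad1 and Sprr2b stand apart at 2.50 to 2.97, Nxpe2 alone lies below -1, and most members lie between the lines.

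Members differed after D6 by how early they appeared, as did other expressed genes. None of the 7 that rose had reached a mean of 1 TPM at D3, and Nxpe2, which fell, had. Over the 7771 protein-coding genes at 5 TPM or more on day 6 or day 9, 0.836% of the 7657 at 1 TPM or more at D3 were called higher and 1.5% lower, while of the 114 under 1 TPM 59.6% were higher and 0% (0 genes) lower. The members' 0 of 17 and 7 of 18 thus follow the split of expressed genes at large, with a share under 1 TPM that is below that background, and D3 is also a value that the rule used. Among the 17 tested members at 1 TPM or more at D3, the log2 fold change of D9 over D6 ran from -1.26 to 0.86 with a median of -0.32. Among the 18 under 1 TPM, it ran from -0.81 to 2.97 with a median of 0.64. Counted by mean TPM over all members, 14 of the 18 early ones and 8 of the 19 later ones were higher at D6 than at D9. Of the 8, Sez6, Gsx1, Prkcb and Hc also had a log2 fold change below 0. Clec2g (0.38), Rfx4 (0.32) and Kcnk12 (0.04) had one above 0, and Gm10337 was not tested. Across the 35 tested members Spearman's rho between the D3 mean and the log2 fold change was -0.63, given as a description, since members are not independent and the D6 and D9 libraries are shared by all of them. The rule also left out 12 genes that failed only because D9 was below D3, so early members that fell further are not in the set.

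**Figure D4:**
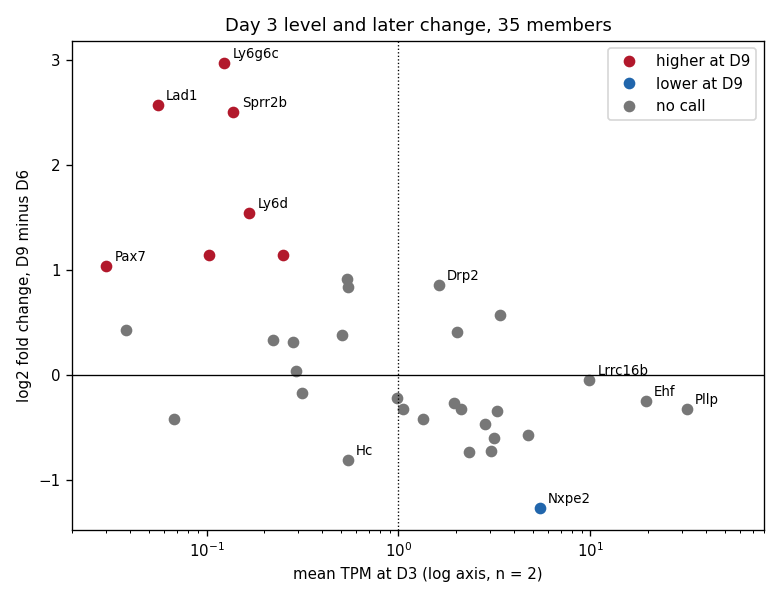
Mean TPM at D3 (log axis) against the log2 fold change of D9 over D6 for the 35 tested members, coloured by call, with a dotted line at 1 TPM. All 7 members called higher lie left of the line, and Nxpe2, the member called lower, lies right of it.

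Transcription factors on the list used here were Ehf, Foxj1 and Pax7. Foxj1, the regulator of motile cilia, measured 0.173 and 0.175 TPM in MEF, 0.477 and 0.611 TPM at D3, 7.48 and 7.35 TPM at D6, 12.6 and 12.4 TPM at D9, and 0.333 and 0.415 TPM in ESC. The D9 libraries were above those of D6 without reaching 2-fold, at 0.84 ± 0.06 on the log2 scale (SE; edgeR adjusted p = 4.8e-08). Pax7, known from muscle stem cells and the neural crest, stood at 0 and 0.00740 TPM in MEF, 0.0220 and 0.0382 TPM at D3, 3.67 and 3.15 TPM at D6, 6.71 and 6.67 TPM at D9, and 0.0308 and 0.0137 TPM in ESC. Pax7 was called narrowly, with 1.04 ± 0.07 on the log2 scale (SE; edgeR adjusted p = 6.9e-08). It met the TPM minimum through D9 alone, so this p-value is not independent of the rule. It was not called without D6 replicate 2 (0.97), without D9 replicate 2 (0.99) or by limma on TPM (0.80 and 0.96). Its relative Pax2 measured 2.52 TPM at D6 and 3.39 TPM at D9, and 0.0637 TPM at D3.

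The homeobox gene Gsx1 and Rfx4, both factors of the developing nervous system, are outside the list and are named after their values were seen. Gsx1 measured 0.0808 and 0.0555 TPM at D3, 8.15 and 8.58 TPM at D6, and 5.73 and 6.04 TPM at D9, and Rfx4 measured 0.0529 and 0.513 TPM at D3, 5.76 and 4.78 TPM at D6, and 5.41 and 4.07 TPM at D9. Elf5, the gene next to Ehf on chromosome 2, and Elf3 are ETS factors of epithelia too, and both were called higher at D9 than at D6 (log2 fold changes 3.08 and 1.95; edgeR adjusted p = 8.3e-08 and 6.4e-08), unlike Ehf with -0.25 ± 0.03 (SE; edgeR adjusted p = 4.3e-05). Elf5 measured 0.270 TPM at D6 and 3.55 TPM at D9, and Elf3 0.860 TPM and 3.20 TPM, so Ehf, at 25.8 TPM, had the highest level of the group of ETS genes compared at D9.

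Channels, pumps and carriers contributed Slc12a3, Atp12a, Kcnk12 and Slc35d3. Atp12a, the nongastric proton potassium pump of epithelia, stood at 0.0139 and 0 TPM in MEF, 3.15 and 3.38 TPM at D3, 7.57 and 7.75 TPM at D6, 5.84 and 5.58 TPM at D9, and 0.210 and 0.214 TPM in ESC. Its order across the stages was that of Pllp and Ehf, with D3 between MEF and D9. Kcnk12, a tandem-pore potassium channel, was at 0.334 and 0.352 TPM in MEF, 0.234 and 0.351 TPM at D3, 7.01 and 7.24 TPM at D6, 6.98 and 6.85 TPM at D9, and 0.162 and 0.220 TPM in ESC. Its D6 and D9 libraries lay close together (log2 fold change 0.04 ± 0.08, SE; edgeR adjusted p = 0.75, not called), and its D3 libraries were not above those of MEF. Slc35d3, a nucleotide sugar transporter, ran from 0.0296 to 0.0466 TPM at D3 and from 4.52 to 5.94 TPM at D6 and D9. Of the 651 tested genes on the list of channels and carriers, 66 were higher and 15 lower at D9, where 5.18% and 2.68% of all genes tested were. Slc12a3, Atp12a, Kcnk12 and Slc35d3 were not among those called.

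The Ly6 family gave Ly6g6c, Ly6d and Ly6h, and Ly6g6f shares the family's symbol and location. Ly6h, a family member best known from brain, measured 0.118 and 0.204 TPM in MEF, 0.230 and 0.216 TPM at D3, 14.3 and 15.2 TPM at D6, 17.2 and 18.2 TPM at D9, and 0.241 and 0.451 TPM in ESC. It was still near its MEF and ESC levels at D3, and D9 exceeded D6 by 0.33 ± 0.10 on the log2 scale (SE; edgeR adjusted p = 0.017), under the 2-fold minimum. Ly6g6f measured 1.77 and 2.24 TPM at D3, 5.18 and 5.75 TPM at D6 and 6.77 and 6.93 TPM at D9, and so appeared before its neighbour Ly6g6c.

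Ly6g6c (chr17:35065388-35070050, plus strand) and Ly6g6f (chr17:35080480-35085610, minus strand) lie 10429 bases apart (GRCm38), with Ly6g6d and Ly6g6e between them. Ly6g6d had means of 2.25 TPM at D3, 8.26 TPM at D6, 12.6 TPM at D9 and 2.16 TPM in ESC, the last of which keeps it out of the set. Ly6g6e had 0.0995, 1.0 and 2.78 TPM at D3, D6 and D9 but 5.97 TPM in ESC. Of these neighbours Ly6g6c and Ly6g6e rose between D6 and D9, by 2.97 and 1.95 on the log2 scale (edgeR adjusted p = 7.1e-12 and 8.3e-05), and Ly6g6d (0.70) and Ly6g6f (0.41) were not called. On chromosome 15, Ly6d and Ly6h lie 787647 bases apart, and the relatives between them are not members. Ly6k had a similar course, with means of 0.104 TPM in MEF, 0.614 TPM at D3, 4.48 TPM at D6 and 5.09 TPM at D9. Its 1.24 TPM in ESC keeps it out of the set. The others differed: Ly6e, Ly6a and Ly6c1 were already at 109, 144 and 28.9 TPM in MEF, and Ly6i, Ly6c2, Ly6g and Ly6f stayed under 0.4 TPM in every group. Pllp and Slc12a3 lie 308679 bases apart on chromosome 8. Members lay on 17 chromosomes.

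Genes best known from neurons were Sez6, Camk1g and Apba2. Sez6, a gene for a surface protein of synapses whose level here lay mostly on noncoding transcripts, was at 0.0259 and 0 TPM in MEF, 1.09 and 0.886 TPM at D3, 13 and 9.94 TPM at D6, 8.95 and 9.39 TPM at D9, and 0.0951 and 0.279 TPM in ESC. The D6 libraries differed by 1.31-fold in TPM, the widest replicate gap in TPM among tested members at D6, although their reads were close, at 1622 and 1605. The log2 fold change, taken from reads, was -0.22 ± 0.07 (SE; edgeR adjusted p = 0.03). Camk1g measured 0.1 and 0.246 TPM in MEF, 0.585 and 0.492 TPM at D3, 4.28 and 4.83 TPM at D6, 8.50 and 7.58 TPM at D9, and 0.0194 and 0.0149 TPM in ESC, and lay just under the 2-fold minimum. Apba2, an adaptor protein of synapses, stood at 11 and 9.99 TPM at D6 and 7.38 and 7.48 TPM at D9. The 6 neuronal markers summed to 108 and 97.3 TPM at D6 and 95 and 95.9 TPM at D9, against 56.8 and 61.7 TPM in MEF and 244 and 228 TPM in ESC. Stmn2 carried nearly all of this at D6 (101 TPM) and D9 (93.6 TPM), Tubb3 was lower there (0.626 and 1.15 TPM) than in MEF (27 TPM), and Rbfox3, Snap25, Syt1 and Elavl3 were under 1 TPM. Their part in the levels of these members was not tested.

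Clec2g, a C-type lectin-like gene of the natural killer gene region, measured 0.0238 and 0 TPM in MEF, 0.494 and 0.519 TPM at D3, 9.77 and 8.55 TPM at D6, 8.04 and 7.31 TPM at D9, and 0.145 and 0 TPM in ESC. On this scale D6 was higher, whereas the log2 fold change from reads was 0.38 ± 0.24 (SE; edgeR adjusted p = 0.25), so no direction is given. The 9 leukocyte markers summed to 3.18 and 4.09 TPM at D6 and 5.68 and 4.91 TPM at D9, with only Cd68 (2.90 and 4.30 TPM) at 1 TPM or more, Itgam at 0.565 and 0.698 TPM, and the pan-leukocyte gene Ptprc at 0.00872 and 0.0333 TPM. Their part in the level of Clec2g was not tested. Ager, the receptor for advanced glycation end products, was nearest to the MEF limit, with 0.475 and 0.489 TPM in MEF and 7.12 and 7.67 TPM at D6.

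The remaining members were Prob1, Frem2, Rbm20, Prkcb, Stac, Hs3st3b1, Drp2, Hc, Rfx4 and Cybrd1. Frem2 is an extracellular protein of embryonic basement membranes, Rbm20 a splicing regulator of heart muscle, Hs3st3b1 a heparan sulfate sulfotransferase and Cybrd1 an iron reductase. Their highest group means ran from 5.08 TPM for Cybrd1 to 11.1 TPM for Prob1. Drp2, a relative of dystrophin on the X chromosome, had the highest log2 fold change among them, with 3.71 and 3.75 TPM at D6 and 6.52 and 6.39 TPM at D9 (log2 fold change 0.86 ± 0.05, SE; edgeR adjusted p = 3.4e-09). Drp2 met the TPM minimum through D9 alone, so this p-value is not independent of the rule. Hc had the lowest log2 fold change, with 5.36 and 5.61 TPM at D6 and 2.91 and 2.98 TPM at D9.

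TPM summed over a gene's transcripts can be carried by short noncoding models, because few reads on a short transcript make a high TPM. In 12 members under 90% of the reads lay on protein-coding transcripts in at least 1 of the D6 and D9 libraries. For 10 members the coding transcripts alone stayed under 5 TPM at both D6 and D9, and 27 members would be kept by the rule on coding transcripts. Sez6 had the lowest coding share: its coding transcripts held 9.99% of its TPM and 21.8% of its reads in D6 replicate 1, and under 40% of its reads in each D6 and D9 library. Stac was the other member with under 50% of its reads on coding transcripts in a library. They held 43.3% in D6 replicate 1 and 47.7% in D9 replicate 2, and reached a mean of 2.95 TPM at D6. Rfx4 kept 97.2% of its reads on coding transcripts in D6 replicate 1, yet a 270-base processed transcript with 2.82% of the reads carried 75.3% of its TPM. For Clec2g a short retained-intron model carried 78.1% of the TPM and 24.2% of the reads in that library, and the coding transcripts measured 2.05 TPM at D6 and 2.67 TPM at D9. Alox15 was the one riser of the 10, with 3.43 TPM of coding transcripts at D9. Nxpe2 kept 10.8 TPM at D6 on its coding transcripts, with 4.28 TPM at D9.

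**Figure D5:**
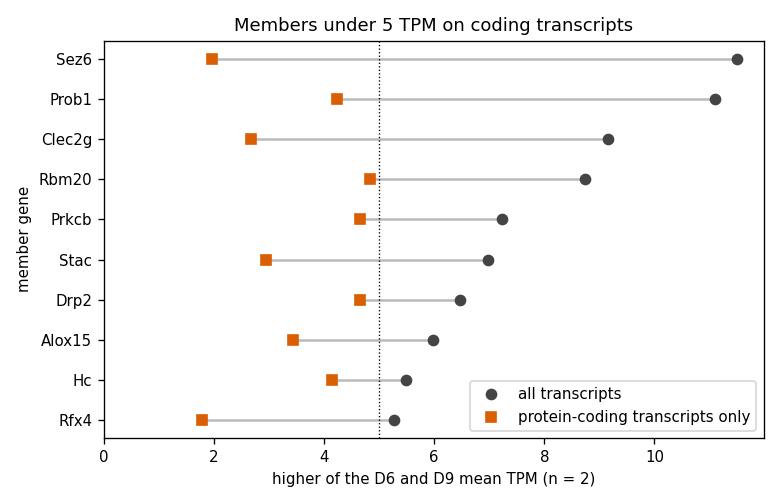
The 10 members whose protein-coding transcripts alone stay under 5 TPM, with the higher of the D6 and D9 means for all transcripts (circles) and for coding transcripts (squares), and a dotted line at the 5 TPM minimum. Sez6 and Prob1 drop furthest, to 1.96 and 4.23 TPM, while Rbm20 stays just under the line at 4.84 TPM.

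A pair of members rest on almost no reads. Gm10337, a 165-base model on chromosome 15 of which 97% of the 31-base windows also occur in Map3k12, was listed at 0 in D6 replicate 1 and D9 replicate 1, and had 12.2 and 5.0 reads in D6 replicate 2 and D9 replicate 2, which its short length turned into 24.3 and 7.86 TPM. Gm17631, a 69-base model, had 1.7 reads in D6 replicate 2 and 3.8 in D9 replicate 1 and was listed at 0 in the other library of each group. Neither passed the filter on low counts. The other 35 had at least 88.4 reads in each D6 and D9 library, and the TPM of their replicates differed by at most 1.31-fold at D6 and 1.33-fold at D9.

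The limits of the rule cut through a continuum. The members closest to the minimum were Cybrd1 (5.08 TPM), Rfx4 (5.27 TPM) and Hc (5.49 TPM), and just below it stood Mroh6 (4.78 TPM), Pkp1 (4.74 TPM) and Ahsg (4.73 TPM). At the MEF limit the nearest members were Ager (0.482 TPM), Hs3st3b1 (0.429 TPM) and Lrrc16b (0.348 TPM), and the nearest genes outside were Scara5 (0.613 TPM), Mbp (0.7 TPM) and Slc7a11 (0.959 TPM). At the ESC limit Lad1 (0.497 TPM), Ager (0.481 TPM) and Pllp (0.478 TPM) were inside, and Dmrtc2 (0.528 TPM), Slc38a5 (0.589 TPM) and Lingo3 (0.595 TPM) outside. On the ratio of D9 to D3, Ehf (1.33), Ager (1.41) and Pllp (1.46) were inside, and Wnk4 (0.967), Sybu (0.642) and Rapgef4 (0.622) outside.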

How the data were processed

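RNA-seq of 10 libraries in 5 groups of 2 was used, grouped by the sample titles. The authors deposited, per transcript, an estimated count of reads (expected counts, not normalized) and a TPM value, per the file headers. Salmon 0.8.2 and the mm10 build are named in the submitters' processing notes, and the annotation release is not given in the sources used here. Effective lengths were identical in the 10 tables. Here 109617 transcripts were summed to 45706 genes. The members and gene lists were chosen with earlier results of these data known, and the rule used the MEF, D3, D6, D9 and ESC means, so levels are described without a test. Only D9 against D6 was tested, since the rule takes either for its minimum, although D9 may not be below D3, which left out 12 genes. The contrast is still not free of the rule. The 10 members that reached the minimum at D9 alone were picked with a higher D9 mean, and the 6 at D6 alone with a higher D6 mean.

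Estimated counts were rounded and filtered with filterByExpr (minimum count 10, total 15; 20165 genes), scaled by TMM and fitted over all 10 libraries with glmQLFit and glmQLFTest (edgeR 4.0.16, R 4.3.3; the quasi-likelihood test). Genes were called with a p-value under 0.05, Benjamini-Hochberg adjusted over all genes, and a log2 fold change of at least 1 in size. Standard errors come from the F statistic. The common biological coefficient of variation was 3.75%. Replicate pairs differed by more than sampling noise (chi-square per degree of freedom 2.7 to 4.91). Named by rule were the 15 members with the highest level, the 5 largest changes in each direction among the called, the 5 highest at D3, the members on the transcription factor list and the 3 highest of each other list, 21 genes in all; others were added by description. Members on the proteases, ligands and germline lists numbered 0. Coordinates come from GENCODE M21 (GRCm38), in which all 37 members matched by gene ID, and promoter windows from RefSeq (GRCm38.p6). Shared 31-base windows were counted in the leading transcript of each member found there. After Gm10337, Sprr2b and Gm17631, the largest shares were 10.9% for Stac, with Gm43236, and 9.81% for Hs3st3b1, with Hs3st3a1. Hs3st3a1 had a mean of 3.49 TPM at D6, so reads could be split between these relatives as well.

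On simulated counts over 20081 genes for D9 with D6, edgeR recovered 99% of genes changed by 1.5 and 100% of those changed by 3 on the log2 scale, with 3 unchanged genes called. On the same counts limma on log2(TPM + 1) recovered 71% and 87%, and DESeq2 98% and 100%. The simulation gave every gene the same spread and planted only changes of these sizes, in genes above a minimum of reads. It therefore cannot show how well changes near the 2-fold minimum are called. DESeq2 1.42.0 and limma 3.58.1 served as alternatives. Scripts used Python 3.11.15, numpy 2.4.6, pandas 2.3.3 and matplotlib 3.10.9.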

Additional observations from a re-analysis of the deposited data

How the results depend on the processing

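The number of members depends on the limits chosen. It was 37 as reported, 21 with an end limit of 0.25 TPM, 62 with 1 TPM, 66 with a minimum of 3 TPM, 17 with 10 TPM, and 29 when both libraries had to meet each limit. Leaving out replicate 1 or 2 of every group gave 33 and 40. Protein-coding transcripts alone gave 30, of which 27 were members, and dropping genes under 10 reads in each library gave 36; both were chosen after seeing the data.

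The count of members higher at D9 was 7 under most settings, and 5 under limma on log2(TPM + 1) and on log2(TPM + 0.1). Leaving out 1 library gave 6 to 7, and the 25 tested members that meet the rule on coding transcripts held 6. The count lower was 1 under all settings that kept the 2-fold minimum. With no fold change minimum the counts were 14 and 16. The median of -0.05 became 0.03 under the stricter filter of 10 CPM, and -0.23 and -0.25 under limma on log2(TPM + 1) and log2(TPM + 0.1), where the median of all genes was -0.03 and -0.07; the cause was not tested. Leaving out 1 library gave medians from -0.13 to 0.00. Members at 1 TPM or more at D3 numbered 23 at a threshold of 0.5 TPM and 13 at 2 TPM, and 17 to 18 with a D3 library left out.

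Named members that changed sign were Lrrc16b, which was 0.00 without D6 replicate 2 and ranged from -0.11 to 0.00 over the single libraries left out, Clec2g under limma (-0.23 and -0.25) and Kcnk12 under limma (-0.04 and -0.04). Pax7 lost its call under limma (0.80 and 0.96). The replicate numbers did not pair the libraries: same-numbered libraries had correlations from -0.0205 to 0.0222, and with the replicate block 7 members were higher, 1 lower, and the median was -0.05. With 2 libraries per group, changes near 2-fold are the least certain.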

Other observations

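Relatives of Alox15 that act in skin stayed under 1 TPM in every group. Alox12b, needed for the water barrier of the epidermis, had means of 0.0317 TPM at D6 and 0.475 TPM at D9 (log2 fold change 3.96; edgeR adjusted p = 2.1e-05). Alox12e, the gene next to Alox15, had 0.224 TPM at D6 and 0.868 TPM at D9 (2.30; edgeR adjusted p = 8.7e-05). Aloxe3, which acts with Alox12b in the epidermis, had 0.476 TPM at D6 and 0.473 TPM at D9 and was not called (0.66; edgeR adjusted p = 0.14).

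Krt6a, a keratin of activated keratinocytes that meets the same limits and was set aside by its symbol, measured 0.00796 TPM at D3, 0.107 TPM at D6 and 5.72 TPM at D9. Wnk4, a kinase that regulates the transporter encoded by Slc12a3, missed the set narrowly because its D9 mean was 0.967 times its D3 mean. Its means were 0.251 TPM in MEF, 13 TPM at D3, 27.8 TPM at D6, 12.6 TPM at D9 and 0.446 TPM in ESC. The mirror rule, with at least 5 TPM at D3, the same limits in MEF and ESC and D9 below D3, was met by 20 protein-coding genes.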
